A study of Mus musculus with 8 samples.

Results

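RING finger and F-box genes are the protein-coding genes whose symbol is Rnf followed by a digit, or Fbxo, Fbxl or Fbxw followed by a digit; 2 matching symbols were left out by the rule that defined the set. The set held 160 of the 21951 protein-coding genes annotated, 83 RING finger genes and 77 F-box genes. A peak was counted for a gene when its midpoint lay in the span of the gene on the same strand. By this rule 217 of the 17068 deposited m6A peaks fell in 72 of the 160 genes, 15067 fell in other coding genes, and 1784 lay outside all coding spans.

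Ubiquitin ligases attach ubiquitin to chosen proteins and so set which proteins a cell degrades or redirects. A RING finger binds a ubiquitin-loaded conjugating enzyme and brings it next to the substrate. An F-box protein instead carries the substrate to a complex of Skp1, a cullin and a small RING protein, and its Fbxw, Fbxl or Fbxo symbol says whether the substrate side has WD40 repeats, leucine-rich repeats or another domain. N6-methyladenosine (m6A) is a mark that the Mettl3 complex writes on adenosines, mostly in the DRACH context (D is A, G or T, R is A or G, and H is A, C or T), of which GGACT is the form most often cited. In messenger RNA it is best known from long internal exons and from the start of the 3′ untranslated region.

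RNA bound to chromatin, which is rich in nascent and unspliced transcripts, had been taken from E14 mouse embryonic stem cells, an established line grown in serum with LIF, with no other treatment or genotype in the series. It was fragmented and immunoprecipitated with SySy anti-m6A (group SySy_ChrMeRIP, with SySy_Input as its input) or with Abcam anti-m6A (Abcam_ChrMeRIP, with Abcam_Input), in 2 libraries per group. The authors' peaks form 3 lists: Cfg1 holds peaks called with both antibodies, Cfg2 peaks called with SySy where Abcam signal stayed below the calling threshold, and Cfg3 peaks called with Abcam only. Cfg1 and Cfg2 together are called SySy peaks here. The 6 stem cell markers checked, Pou5f1, Nanog, Sox2, Klf4, Esrrb and Zfp42, all held at least 1 peak, from 1 in Pou5f1 to 10 in Klf4. The lists give positions only. They carry no height, no read depth and no value per replicate, so the 95% Wilson intervals given with shares cover counting error alone, and peaks of a gene share a transcript.

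The sequences that follow are whole peaks, read 5′ to 3′ on the strand of the gene from the RefSeq genome of GRCm38.p6 (the mm10 coordinates of the lists), with each GGACT in capitals. They are chosen examples of the sites to which the values below refer back, not typical ones. The opening 5 are Cfg1 peaks inside coding sequence. All 5 hold GGACT, and 4 of these hold it more than once. Of the 72 Cfg1 peaks of the set, 30 held GGACT and 10 held it 2 or more times.
Rnf213 exon 25, chr11:119435951-119436096, plus strand: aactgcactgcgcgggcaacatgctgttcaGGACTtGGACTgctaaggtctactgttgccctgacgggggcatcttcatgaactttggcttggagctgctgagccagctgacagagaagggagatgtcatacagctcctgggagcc
Rnf25 exon 10, chr1:74593885-74594035, minus strand: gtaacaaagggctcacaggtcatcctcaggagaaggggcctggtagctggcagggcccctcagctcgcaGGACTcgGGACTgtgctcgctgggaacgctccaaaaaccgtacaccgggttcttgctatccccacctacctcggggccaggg
Rnf34 exon 3, chr5:122864202-122864392, plus strand: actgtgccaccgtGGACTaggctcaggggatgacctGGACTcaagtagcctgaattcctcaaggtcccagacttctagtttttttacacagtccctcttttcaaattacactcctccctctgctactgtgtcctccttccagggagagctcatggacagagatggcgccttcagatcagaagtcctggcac
Fbxw2 exon 2, chr2:34822559-34822808, minus strand: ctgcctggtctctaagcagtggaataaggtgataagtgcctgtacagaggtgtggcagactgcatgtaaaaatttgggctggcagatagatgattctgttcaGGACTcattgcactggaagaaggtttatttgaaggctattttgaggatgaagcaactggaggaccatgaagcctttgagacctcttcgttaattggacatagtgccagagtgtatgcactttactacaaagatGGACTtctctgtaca
Fbxw7 exon 4, chr3:84903690-84903904, plus strand: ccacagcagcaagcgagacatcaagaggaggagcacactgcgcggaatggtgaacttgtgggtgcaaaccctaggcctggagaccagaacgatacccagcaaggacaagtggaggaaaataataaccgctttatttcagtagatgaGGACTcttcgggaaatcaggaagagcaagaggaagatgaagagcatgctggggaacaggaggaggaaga

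In the Rnf213 peak the copies of GGACT are parted by a single base, and in the Rnf25 peak by a pair of bases. The next 4 are SySy peaks inside introns, shown because such peaks were rare in these genes. The Rnf213 peak lies in the long intron 1 of the gene and holds GGACT in direct tandem, while the Fbxl17 peak, from the only intron of the set with Cfg1 peaks that no annotated exon overlaps, holds none.
Rnf213 intron 1, chr11:119396486-119396597, plus strand: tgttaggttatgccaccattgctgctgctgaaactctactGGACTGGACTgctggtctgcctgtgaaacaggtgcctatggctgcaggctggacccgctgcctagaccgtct
Fbxo42 intron 1, chr4:141148877-141149019, plus strand: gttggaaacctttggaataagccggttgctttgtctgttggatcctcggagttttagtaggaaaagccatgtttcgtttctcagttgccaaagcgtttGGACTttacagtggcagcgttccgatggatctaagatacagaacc
Fbxl2 intron 13, chr9:113982214-113982313, minus strand: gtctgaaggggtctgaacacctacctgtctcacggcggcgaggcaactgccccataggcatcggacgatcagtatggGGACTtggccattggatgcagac
Fbxl17 intron 3, chr17:63480527-63480645, minus strand: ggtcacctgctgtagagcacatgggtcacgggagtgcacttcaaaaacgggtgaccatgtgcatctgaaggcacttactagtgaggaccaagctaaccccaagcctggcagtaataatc

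The following pair of Cfg3 peaks was picked to show a repeated unit that few peaks of the set held. In them the capitals mark GGACA, a DRACH form, which recurs 6 times in the Fbxl19 peak and 5 times in the Rnf169 peak as part of a longer repeated unit.
Fbxl19 intron 8, chr7:127761443-127761677, plus strand: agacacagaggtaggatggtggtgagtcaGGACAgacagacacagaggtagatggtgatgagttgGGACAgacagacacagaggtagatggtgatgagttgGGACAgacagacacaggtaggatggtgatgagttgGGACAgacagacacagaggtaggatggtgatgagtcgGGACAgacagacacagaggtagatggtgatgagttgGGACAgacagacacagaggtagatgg
Rnf169 intron 1, chr7:99960654-99960848, minus strand: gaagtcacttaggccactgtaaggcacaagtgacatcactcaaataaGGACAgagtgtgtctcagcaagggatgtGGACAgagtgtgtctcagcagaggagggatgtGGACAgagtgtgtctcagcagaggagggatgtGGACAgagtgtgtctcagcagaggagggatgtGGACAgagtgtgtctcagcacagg

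In the 3′ untranslated region, 30-base windows around a GGACT (capitals again) are shown for a SySy peak of Rnf145, Fbxl19 and Rnf40.
Rnf145 exon 11, chr11:44564297-44564326, plus strand: gcttggagctctGGACTgtggagaaggcca
Fbxl19 exon 11, chr7:127768750-127768779, plus strand: ggggaatctcGGACTtgggggagtgtgatg
Rnf40 exon 20, chr7:127602647-127602676, plus strand: tgaaactcaggGGACTttgaacacccgagg

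A peak of any list was present in 72 of the 160 genes, or 45% (37.5% to 52.7%), against 25.1% of all coding genes. Cfg1 peaks lay in 32 members (20%, 14.5% to 26.9%; all coding genes 12.1%), Cfg2 peaks in 44 (27.5%, 21.2% to 34.9%; 13.7%) and Cfg3 peaks in 35 (21.9%, 16.2% to 28.9%; 13.3%). The share of the set was thus above the background in each list. For any list it was close to equal in both families, with 37 of 83 RING finger genes and 35 of 77 F-box genes. By list, 16.9% (10.3% to 26.3%) of RING finger and 23.4% (15.3% to 34%) of F-box genes held Cfg1 peaks. For Cfg2 the shares were 19.3% (12.2% to 29%) and 36.4% (26.5% to 47.5%). For Cfg3 they were 26.5% (18.2% to 36.9%) and 16.9% (10.1% to 26.8%). The RING finger intervals for Cfg1 and Cfg2 and the F-box interval for Cfg3 held the background. The peaks also divided differently between the families: RING finger genes held 37 Cfg1, 32 Cfg2 and 36 Cfg3 peaks, and F-box genes held 35, 52 and 25. SySy peaks were found in 59 members, of which 22 also held a Cfg3 peak, and 13 members held Cfg3 peaks alone. All 3 lists were present in 7 members. These overlaps between lists were not counted for all coding genes, so they are given as a description. With exonic peaks alone the Cfg3 share of members was 8.12% (4.81% to 13.4%), against 6.68% of all coding genes.

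Transcript length moved with the presence of a peak. Members with a peak had a median representative transcript (the one with the longest coding sequence) of 3831.5 nt, and the 88 members without had 1960.5 nt. Within each length class the members still lay above all coding genes. A SySy peak was found in 17.2% (9.64% to 28.9%) of members under 2000 nt against 6.96% of all coding genes of that length, in 35.2% (23.8% to 48.5%) against 20.8% between 2000 and 4000 nt, and in 62.5% (48.4% to 74.8%) against 36.9% at 4000 nt or more. The lists hold no RNA level, so these shares could not be set against expression.

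**Figure D1:**
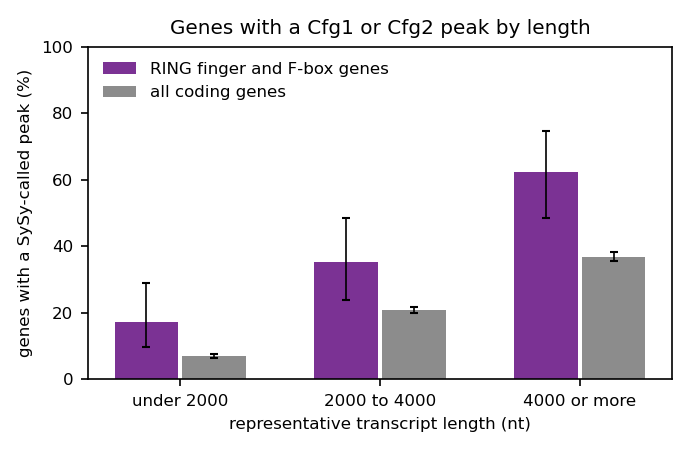
Share of genes with a Cfg1 or Cfg2 peak (y axis, percent) by length of the representative transcript (x axis, nt), for RING finger and F-box genes (purple) and all coding genes (grey), with 95% Wilson intervals. The share climbed with length in both, to 62.5% of members and 36.9% of all coding genes at 4000 nt or more.

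Peaks were concentrated in few genes. The 11 members with 4 or more SySy peaks held 74 of the 156 SySy peaks of the set, and 5 members held 28 of its 61 Cfg3 peaks. In contrast, 28 members had a single peak and 30 had 2 to 4. The same counts were not made for other coding genes. Many neighbouring peaks came from a common enriched region that the authors had split between summits: the 217 peaks arose from 154 called regions, and 105 of them were parts of a split region.

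**Figure D2:**
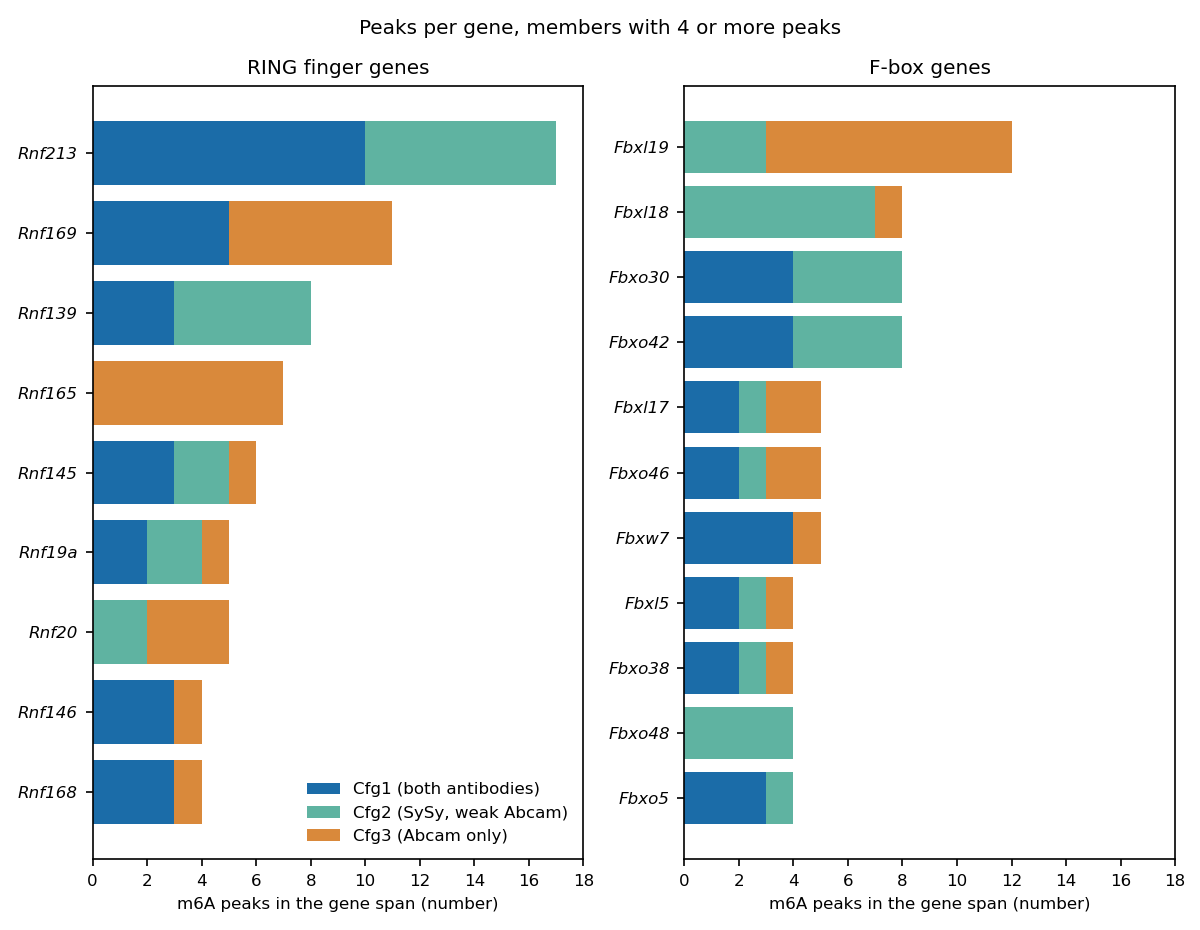
Number of peaks (x axis) in each RING finger gene (left) and F-box gene (right) with 4 or more peaks, stacked by list (Cfg1 blue, Cfg2 green, Cfg3 orange). Rnf213 led with 17 SySy peaks, while Fbxl19, Rnf169 and Rnf165 held the most Cfg3 peaks, 9, 6 and 7.

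Rnf213 encodes a giant RING protein with an ATPase core, whose human counterpart is linked to moyamoya disease. It held 10 Cfg1 and 7 Cfg2 peaks and no Cfg3 peak, the most of any member (chr11:119393100-119487418, plus strand). Of its 67 exons only 4 carried peaks, and 14 of the 17 peaks lay in coding sequence. Exon 25 (1150 nt) held 3 Cfg1 peaks and 1 Cfg2 peak, with midpoints between -10620 and -10208 nt of the stop codon on the spliced transcript, and the exon 25 sequence above is the leftmost of them. Exon 28, the longest of the exons with a peak at 3603 nt, held 6 Cfg1 and 3 Cfg2 peaks between -8887 and -6057 nt. A Cfg1 peak past the stop codon, at 258 nt in exon 67, and a Cfg2 peak in exon 3 completed the exonic set. The peaks covered 7 of the 25 GGACT in the transcript.

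Fbxo30 and Fbxo42, both substrate receptors of the Fbxo group, held 4 Cfg1 and 4 Cfg2 peaks each, in different arrangements. In Fbxo30 all 8 were exonic, 6 of them in the 2053 nt exon 2 and a pair across the stop codon at -171 and 65 nt. In Fbxo42 the 4 Cfg1 peaks followed each other in the last exon, at -739, -523, -172 and 47 nt, and the 4 Cfg2 peaks were all in intron 1. Fbxl18 carried 7 Cfg2 peaks and 1 Cfg3 peak, with no Cfg1 peak: 5 of the Cfg2 peaks and the Cfg3 peak lay in the 1544 nt exon 3, and the last Cfg2 peak lay 5263 nt past the stop codon. All 3 genes thus had several peaks within a single exon, and they differed in which list those peaks came from.

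Rnf139 and Rnf145 encode RING ligases of the endoplasmic reticulum membrane, where both have been tied to sterol control. Rnf139 held 3 Cfg1 and 5 Cfg2 peaks in exon 2, from -1226 to 870 nt, and none of them contained GGACT, which occurs 2 times in that transcript. Its span overlaps the coding gene model Gm49356 on the same strand, and 4 of its peaks lie opposite an exon of Tatdn1, so its counts are less certain. Rnf145 held 3 Cfg1 and 2 Cfg2 peaks from -521 to 280 nt, and its Cfg1 peaks at -275, -109 and 75 nt contained 1, 1 and 2 GGACT. A Cfg3 peak in intron 2 was its only intronic peak.

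Fbxw7, the receptor for Myc, cyclin E and Notch, held 4 Cfg1 peaks and 1 intronic Cfg3 peak. The Cfg1 peaks formed a pair in exon 4, at -1905 and -1722 nt, and another in the last exon at -28 and 272 nt, and the exon 4 sequence above is the left one. Fbxo5, also known as Emi1, which inhibits the anaphase-promoting complex, had 3 Cfg1 peaks in exon 2 and a Cfg2 peak at 161 nt. Rnf19a, a RING-between-RING ligase, had 2 Cfg1, 2 Cfg2 and 1 Cfg3 peaks, all exonic, at both ends of its coding sequence. Fbxo48, the shortest coding sequence among the members with most SySy peaks at 486 nt, had 4 Cfg2 peaks, with 2 of them in the 5′ untranslated part of exon 1.

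**Figure D3:**
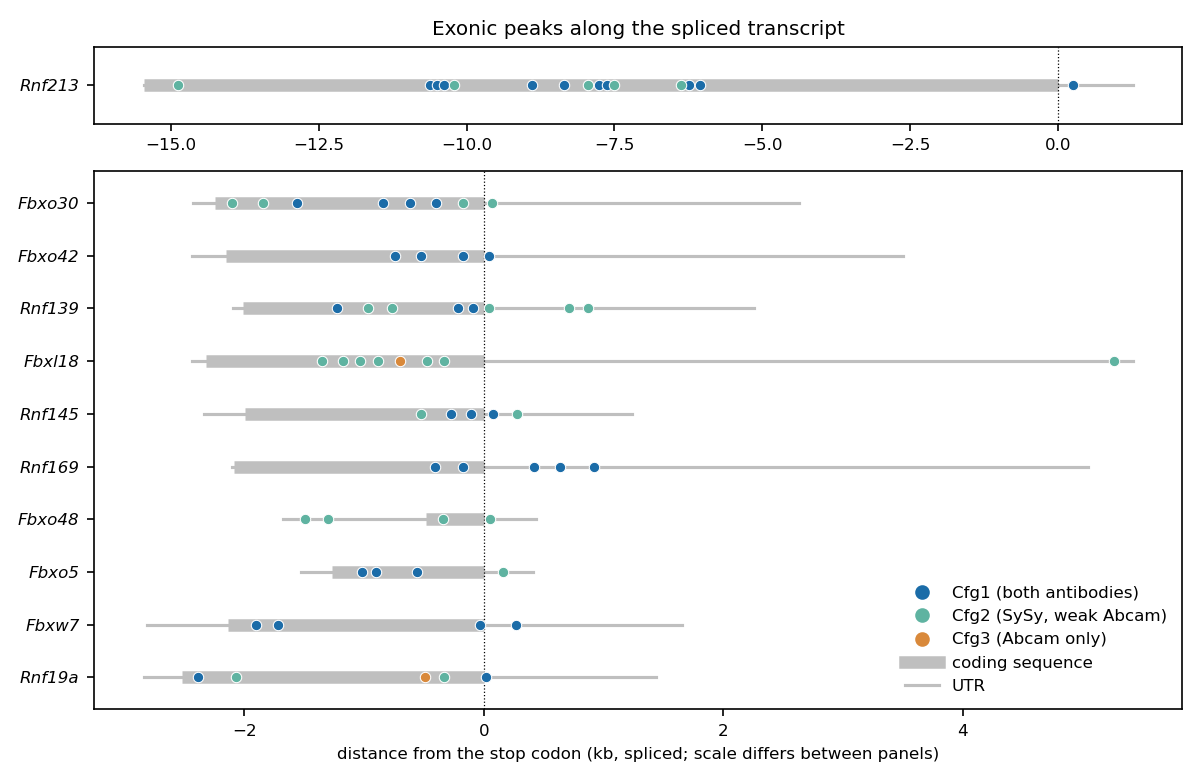
Exonic peaks of the 11 members with most SySy peaks along the spliced transcript; x axis, distance from the stop codon in kb, with a separate scale for Rnf213 (top). Thick bars are coding sequence, thin lines untranslated regions, and dots peak midpoints by list. The Rnf213 peaks sat at -6057 nt or further upstream, apart from 1 past the stop codon, while in Fbxo42, Rnf145 and Rnf169 peaks lay on both sides of the stop codon.

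Among the exonic SySy peaks, 130 of 138 lay in an exon of 400 nt or more (94.2%, 89% to 97%), against 95.3% of 8614 in other coding genes, and the shortest exon with such a peak had 149 nt. Coding sequence held 58 of the 69 exonic Cfg1 peaks, the 3′ untranslated region 10 and the 5′ untranslated region 1. The Cfg2 peaks were spread more evenly, with 39 in coding sequence, 26 in the 3′ and 4 in the 5′ untranslated region. The next count was made for members alone, with no matching count for other coding genes. Of the 54 members with an exonic SySy peak, 30 had one within 200 nt of the stop codon. That window held 27.5% (19 of 69) of the exonic Cfg1 peaks of members and 24.4% of those of other coding genes, a difference of 3.10 points (-6.13 to 14.7). For Cfg2 the shares were 26.1% and 23.2% and the difference 2.92 points (-6.08 to 14.4), and for Cfg3, with 15 exonic peaks in members, 20% and 15.5%. None of the 3 differences passed Fisher's exact test (two-sided, adjusted over the 16 tests made; adjusted p = 0.763 for each).

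GGACT was searched on the strand of the gene over each whole peak. It was found in 41.7% (30 of 72; 31.0% to 53.2%) of Cfg1 peaks of members against 38.1% in other coding genes, in 36.9% against 31.8% of Cfg2 peaks, and in 14.8% against 17.1% of Cfg3 peaks. The differences were 3.61 points (-7.16 to 15.2), 5.10 points (-4.53 to 15.9) and -2.39 points (-9.26 to 8.63), and none passed the same test (exact adjusted p = 0.763, 0.690 and 0.763). DRACH was present in 72 of 72 Cfg1, 82 of 84 Cfg2 and 54 of 61 Cfg3 peaks of members. It was in 99.3%, 96.7% and 92.8% of the Cfg1, Cfg2 and Cfg3 peaks of other coding genes. Across the transcripts of the 54 members with exonic SySy sequence, those peaks covered 11.7% of the bases and 24.4% of the GGACT (66 of 270), which gives 2.61 GGACT per kb inside and 1.07 per kb outside.

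Within the set the lists differed strongly in where their peaks lay. The authors' methods name a different library kit for each antibody, and by that account antibody and kit cannot be told apart. Of the Cfg1 peaks 3 of 72 (4.17%) were intronic, against 45 of 61 Cfg3 peaks (73.8%), a difference of -69.6 points (-79.4 to -55.3; adjusted p by Fisher's exact test = 7.61e-17). GGACT was in 41.7% of Cfg1 and 14.8% of Cfg3 peaks, a difference of 26.9 points (11.6 to 40.3; exact adjusted p = 0.00811). Whole Cfg1 peaks gave more bases to search, with a median width of 209.5 nt against 125 nt for Cfg3. Within a central window of 100 nt, GGACT was in 31.9% of Cfg1 and 11.5% of Cfg3 peaks. That left 20.5 points between them (Fisher's exact test, adjusted p = 0.034). For whole peaks, with 1 peak kept per gene and list, the GGACT difference was 26.6 points, with an adjusted p of 0.166 in the exact test. The share near the stop codon, 27.5% of exonic Cfg1 and 20% of exonic Cfg3 peaks, did not differ beyond its error (difference 7.54 points, -19.3 to 24.9; exact adjusted p = 0.763).

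Cfg3 peaks of members were intronic more often than those of other coding genes, 73.8% (45 of 61) against 55.5% (2978 of 5367), a difference of 18.3 points (6.0 to 27.8; adjusted p by Fisher's exact test = 0.0222). This was the only difference between members and other coding genes that passed the test, and it rested on few genes. With 1 peak per gene and list it was 10.6 points and with 1 per called region 15.8 points (exact adjusted p = 0.650 and 0.101), and without Fbxl19, Rnf165 and Rnf169 together it was 8.62 points (-7.12 to 21.8; exact, unadjusted p = 0.333). Leaving out Rnf165 or Rnf169 alone also ended the call (exact adjusted p = 0.152 and 0.113). For Cfg1 and Cfg2 the intronic shares of members were 4.17% and 15.5%, and those of other coding genes 6.44% and 10.3% (differences -2.27 points, -5.11 to 5.14, and 5.17 points, -1.10 to 14.4; exact adjusted p = 0.763 and 0.388). Cfg3 made up 28.1% of all peaks in members and 35.6% in other coding genes (difference -7.51 points, -13.1 to -1.14; exact adjusted p = 0.0886). This value moved with the counting: it was -2.61 points with 1 peak per gene and list (exact adjusted p = 1), -5.12 points without Rnf213 (exact adjusted p = 0.393) and -9 points without peaks of over 50% masked bases (exact adjusted p = 0.0345).

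**Figure D4:**
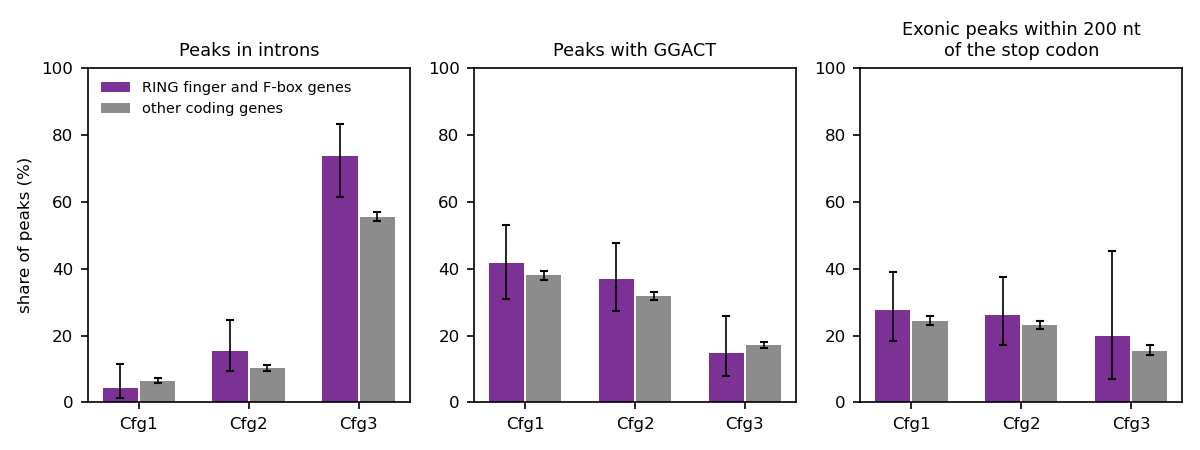
Share of peaks (y axis, percent) in introns, with GGACT, and within 200 nt of the stop codon (exonic peaks) for RING finger and F-box genes (purple) and other coding genes (grey) in each list, with 95% Wilson intervals. The bars of members and other genes lay close together except for intronic Cfg3 peaks, 73.8% against 55.5%.

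The 16 intronic SySy peaks were in 9 members, and 10 of them in intron 1. The Cfg1 ones were 2 in intron 3 of Fbxl17, a receptor for BTB proteins that dimerise wrongly, 6987 and 7126 nt from the 5′ splice site, and 1 in intron 6 of Rnf220 that is exonic in another annotated transcript. Fbxo42 had Cfg2 peaks 769, 1068, 15802 and 15918 nt into its intron 1, and Rnf213 had them 3346 and 9153 nt into intron 1. Both Cfg2 peaks of Fbxl2 lay in intron 13, at 1721 and 1993 nt, and each contained GGACT. Fbxo31 had 1 in intron 1. The remaining ones were in Fbxl6 and Fbxl12, where all 3 are exonic in another transcript, and in intron 35 of Rnf123. The intronic peaks of Fbxl12 and Rnf123 also lie opposite an exon of Ubl5 and of Amigo3 on the other strand, and the part of the other strand in them was not tested. GGACT was in 8 of the 13 intronic Cfg2 peaks of members (61.5%, 35.5% to 82.3%), against 35.3% of those of other coding genes, and in none of the 3 intronic Cfg1 peaks.

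Intronic Cfg3 peaks, 45 in 23 members, lay a median of 4913 nt from the 5′ splice site, and 9 of them within 500 nt of it. Fbxl19, a CXXC zinc finger F-box protein that binds CpG islands, held 9 Cfg3 peaks, of which 4 filled intron 8 (1024 nt) and 2 lay in intron 5 (498 nt). Rnf165, a RING ligase of BMP signalling, held 7 Cfg3 peaks, all in intron 1 between 15208 and 53666 nt, and no SySy peak. Rnf169, which binds ubiquitylated histones at DNA breaks, held 6 Cfg3 peaks in introns 1 to 3 and 5 Cfg1 peaks in its last exon. Fbxw8, the partner of Cul7, held 3, all intronic, and Rnf20 held 2 in intron 2 and 1 in exon 13. These 5 genes held 25 of the 45 intronic Cfg3 peaks of the set.

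**Figure D5:**
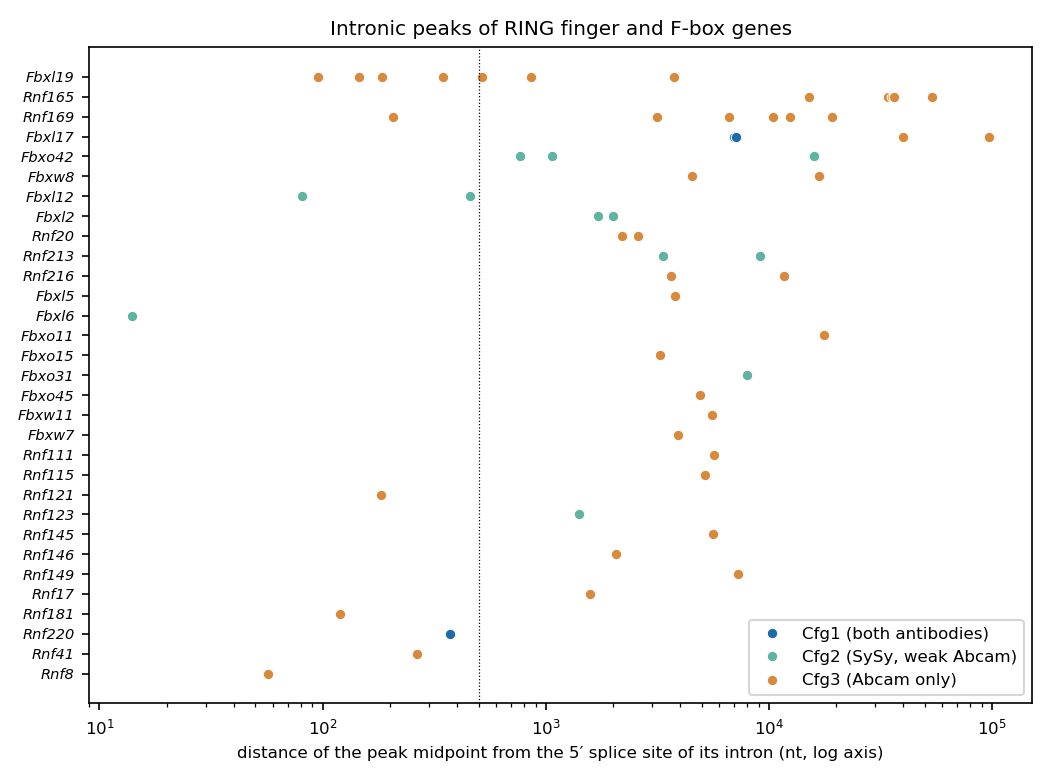
Distance of each intronic peak midpoint from the 5′ splice site of its intron (x axis, nt, log scale) for the 31 members with an intronic peak, coloured by list; the dotted line marks 500 nt. Cfg3 peaks (orange) made up 45 of the 61 points.

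The share of repeat sequence in the peaks was also measured. More than 50% of the bases were in lower case (masked as repeats) in the RefSeq genome in 13 of 61 Cfg3 peaks of members (21.3%, 12.9% to 33.1%), in 1 of 84 Cfg2 peaks and in 0 of 72 Cfg1 peaks, which allows a share of up to 4.17% (3 counts of the total; the Wilson limit is 5.07%). In other coding genes the shares were 14.7%, 2.61% and 2.65% for Cfg3, Cfg2 and Cfg1. Among intronic Cfg3 peaks the masked share was 24.4% (14.2% to 38.7%) in members and 22.1% in other coding genes, so the members lay within their counting error of the rest. In other coding genes the intronic Cfg1 peaks were masked in 27.7% and the exonic ones in 0.724%. The 4 peaks in intron 8 of Fbxl19 held 19, 12, 11 and 13 DRACH, made of AGACA and GGACA alone, and a pair of Rnf165 peaks held 13 and 12, 11 of them AGACA in each. At least 10 DRACH were found in 6 of 61 Cfg3 peaks of members (9.84%, 4.59% to 19.8%) and in 2.05% of Cfg3 peaks of other coding genes, and these 6 were the peaks just named. GGACA was in 17.8% (9.29% to 31.3%) of intronic Cfg3 peaks of members and 26.8% of those of other coding genes. The Rnf169 peak printed above was not masked in spite of its repeated unit. Without peaks of over 50% masked bases, Cfg3 peaks of members and of other coding genes were intronic in 70.8% and 50.7% (Fisher's exact test, adjusted p = 0.0345).

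Between the families, Cfg3 took 34.3% (36 of 105) of the peaks of RING finger genes and 22.3% (25 of 112) of those of F-box genes, a difference of 12 points (-0.01 to 23.6; adjusted p by Fisher's exact test = 0.222). Without Rnf213 and its 17 SySy peaks the shares were 40.9% and 22.3% (exact adjusted p = 0.0218). With 1 peak per gene and list the difference was 20.3 points (exact adjusted p = 0.166), and without peaks of over 50% masked bases it was 7 points, 27.4% against 20.4% (exact adjusted p = 0.575). Intronic peaks made up 29.5% and 26.8% of all peaks in RING finger and F-box genes (difference 2.74 points, -9.13 to 14.6; exact adjusted p = 0.763). GGACT was in 33.3% of SySy peaks of RING finger genes and 43.7% of those of F-box genes (difference -10.3 points, -24.8 to 5.04; exact adjusted p = 0.566).

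By role, 5 of 6 ligases of histone H2B and DNA damage carried peaks, beside 25.1% of all coding genes, with 9 Cfg1, 3 Cfg2 and 11 Cfg3 peaks in all and none in Rnf138. Rnf169 alone supplied 5 of these Cfg1 and 6 of these Cfg3 peaks. Rnf8 and Rnf168, which act in sequence on histones at DNA breaks, had 1 Cfg1 and 1 Cfg3 peak, and 3 Cfg1 and 1 Cfg3 peak. The Rnf8 peaks lie in a span shared with the gene model Gm28043. Rnf20 and Rnf40, which work as a complex on H2B, both had Cfg2 peaks in the 3′ untranslated region of the last exon, at 186 and 273 nt in Rnf20 and at 125 nt in Rnf40. Among SUMO-targeted and Arkadia-type ligases, Rnf111 had 2 Cfg1 and 1 Cfg3 peaks, Rnf165 its 7 Cfg3 peaks, and Rnf4 none.

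Peaks were present in 5 of 8 ligases of the endoplasmic reticulum, led by Rnf139, and in 2 of 8 RING-between-RING ligases, Rnf19a and Rnf216. They were present in 2 of 8 protease-associated transmembrane ligases, Rnf149 and Rnf167. Of the F-box groups, 5 of 23 Fbxw genes (21.7%), 11 of 18 Fbxl genes (61.1%) and 19 of 36 Fbxo genes (52.8%) held a peak, beside 25.1% of all coding genes. Of the 18 Fbxw genes without a peak, 15 were Fbxw13 to Fbxw28, members of a mouse family of closely similar copies, for which a missing peak is uncertain where reads map to several copies. Fbxo15, a gene known for its expression in embryonic stem cells, held 1 peak of each list, with its Cfg1 peak 104 nt before the stop codon.

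Pairs of close relatives differed in some cases and were alike in others, and those named here are examples. Rnf19a held 5 peaks and Rnf19b none. Rnf111 and Rnf165 shared no list but Cfg3. Fbxo28 and Fbxo45 each had a Cfg1 peak close to the stop codon, at -145 and -58 nt. Fbxl2 had its Cfg2 peaks in an intron, while that of Fbxl20 lay 7 nt past the stop codon. Rnf144a and Rnf144b had no peak. These counts are small and were not tested.

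Other genes of the pathway were covered unevenly. Peaks were present in 7 of 16 genes of the cullin-RING core (43.8%) and in 15 of 26 HECT ligases (57.7%). They were present in 2 of 6 activating enzymes (33.3%) and in 12 of 37 conjugating enzymes (32.4%). The share was 25.1% of all coding genes and 45% (72 of 160) of RING finger and F-box genes. These gene groups are small and their differences were not tested. Cul1, the scaffold of the F-box complex, held 2 Cfg1 peaks, and Skp1a and Rbx1, its partners, held none. Conjugating enzymes held 5 Cfg1, 3 Cfg2 and 21 Cfg3 peaks, with 5 Cfg3 peaks in Ube2k, while HECT ligases held 23, 10 and 17, with 3 Cfg1 peaks each in Herc1, Herc2 and Hectd4.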

How the data were processed

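The authors sequenced chromatin-associated RNA after m6A immunoprecipitation, with its inputs, in 8 libraries of 4 groups. Per the methods peak calling used MACS2 2.1.1, with the duplicates of an antibody pooled, assigned strand from the ratio of immunoprecipitate to input, removed peaks of ambiguous direction, split peaks between summits and sorted them into the 3 lists (mm10). The deposited files give the start and end of each peak, and the deposited score is 0 for every peak. Depth per library is therefore not known here, and nothing says that the duplicates were separate cultures. A single Cfg2 entry with a stray strand character was read as plus.

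Peaks were placed by midpoint on the transcript with the longest coding sequence of each GENCODE gene on GRCm38.p6, whose coordinates are those of mm10. The sequences of all 160 transcripts matched the genome. Of the member peaks, 13 also lay in the same-strand span of another coding gene and 13 opposite an exon of a coding gene. For shares, 16 Fisher's exact tests (two-sided) were made, their p-values adjusted by the Benjamini-Hochberg method with a threshold of 0.05, with Newcombe intervals for differences (Python 3.11.15, scipy 1.17.1, numpy 2.4.6, pysam 0.24.0, matplotlib 3.10.9). The test code was tested on simulated data. Tests and intervals treat peaks as independent, which peaks of a gene are not. Alternatives changed the transcript, the placement, the motif and its window, the stop codon window, and the counting of peaks per gene or called region.

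Genes named in full were the 10 with most SySy peaks (11 with ties), the 5 with most Cfg3 peaks, role lists and pairs of relatives, and any member with a Cfg1 or an intronic Cfg2 peak could be named. Members and lists were chosen with earlier results of these data known. A pair of relatives in those lists is not reported here.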

Additional observations from a re-analysis of the deposited data

How the results depend on the processing

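Of 99 alternative values, 82 kept their direction and their side of the threshold, or moved by less than their error. These 82 included differences that passed the threshold in neither setting. Some could not move: Rnf213 held no Cfg3 peak. Leaving it out therefore repeated the differences in intron, GGACT and stop codon share of Cfg3 peaks between members and other coding genes. The higher intronic share of Cfg3 peaks in members than in other coding genes, 18.3 points, was 10.6 points with 1 peak per gene and list (exact adjusted p = 0.650) and 15.8 points with 1 peak per called region (exact adjusted p = 0.101). The following alternatives were chosen after seeing the data. That difference was 14.9 points without Rnf165 and 15.4 points without Rnf169 (exact adjusted p = 0.152 and 0.113), while it was 17.6 points without Fbxl19 (exact adjusted p = 0.0363). Without peaks of over 50% masked bases, the GGACT difference for Cfg3 was 0.86 points, the lower Cfg3 share of members was -9 points (exact adjusted p = 0.0345), and the Cfg3 difference between RING finger and F-box genes was 7 points (exact adjusted p = 0.575). The alternatives below were set out with the design. The Cfg1 stop codon difference was -3.84 points with 1 peak per gene and list and -3.26 points with 1 per called region, and that for Cfg3 was -0.00791 points with 1 per gene and list. The lower Cfg3 share of members was -2.61 points with 1 peak per gene and list (exact adjusted p = 1) and -5.12 points without Rnf213 (exact adjusted p = 0.393). The difference in GGACT between RING finger and F-box genes was 1.01 points with 1 peak per gene and list, and that between Cfg1 and Cfg3 peaks of members 26.6 points (exact adjusted p = 0.166). Without Rnf213, Cfg3 took a larger share in RING finger than in F-box genes by 18.6 points (exact adjusted p = 0.0218). Exonic peaks alone gave a share of members with a peak of 36.9% for any list, against 20.3% of all coding genes. For Cfg3 it was 8.12% (4.81% to 13.4%) against 6.68%, so the member interval held the background. Among members with any peak, 44.4% (33.5% to 55.9%) held Cfg1, 61.1% (49.6% to 71.5%) Cfg2 and 48.6% (37.4% to 59.9%) Cfg3 peaks. Among all coding genes with any peak the shares were 48.4%, 54.6% and 52.8%, each inside the member interval. The cause of these changes was not tested.

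No paired analysis was possible because the lists were called on pooled duplicates and hold no value per replicate. For the same reason no replicate could be left out, and with a score of 0 throughout no stricter threshold could be set. With 61 Cfg3 peaks, 15 of them exonic, differences of several points could not be resolved.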

Other observations

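Signal also lay beside the genes. On the strand opposite to a member, 10 peaks had their midpoint within its span. Of these, 4 lay outside coding genes of their own strand, all of them Cfg3, 2 in Fbxo36 and 2 in Rnf220. Within 5000 nt downstream of a member on the same strand there were 6 peaks, of which 2 lay outside coding genes, both Cfg2, 2831 and 4935 nt past the end of Rnf214.

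Peak width differed between the lists within members, with medians of 209.5 nt for Cfg1, 157.5 nt for Cfg2 and 125 nt for Cfg3, against 199, 160 and 135 nt in other coding genes. GGACA was in 48.6% of Cfg1 peaks of members (37.4% to 59.9%), against 39.8% of those of other coding genes, and in 23.8% against 24.8% of Cfg2 peaks. These values were not tested.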
